A study of Homo sapiens with 4 samples.

Results

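Binding sites of the transcriptional coactivator YAP, taken from chromatin precipitated with an antibody from Santa Cruz, were compared with binding sites of TEAD1 in the human cell line H69. The sites are peaks of chromatin immunoprecipitation followed by sequencing (ChIP-seq), that is, stretches of the genome where precipitated fragments pile up. Members were the peaks of both deposited lists that lay on chromosomes 1 to 22 and were narrower than 1000 bp, called narrow here. The rule kept 2071 of the 2471 Santa Cruz peaks and 46548 of the 48962 TEAD1 peaks, out of 61551 peaks in the 3 lists of the series. The widest Santa Cruz peak kept measured 994 bp and the narrowest one left out on these chromosomes 1003 bp. The corresponding TEAD1 widths were 998 bp and 1002 bp.

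The series holds 4 libraries, 1 per antibody, all from H69 cells that were crosslinked with formaldehyde. Besides the Santa Cruz and TEAD1 libraries there is a library made with a further YAP antibody, which the design text calls Avruch, and one made with an unrelated IgG, which was not analysed here. The labels give no genotype, treatment or time. The name H69 is in use for a line of bile duct epithelial cells and, as NCI-H69, for a lung cancer line, and the labels do not say which was used. Depth of sequencing is not known from peak lists. No library has a replicate, so no difference below was tested. Shares are given with Wilson 95% intervals, which cover counting error only and treat neighbouring peaks as separate counts. Peaks of 1 locus can share a source, so these intervals are too narrow where peaks crowd together.

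YAP is the effector of the Hippo pathway, a kinase cascade that restrains growth by keeping YAP out of the nucleus. It has no DNA-binding domain of its own and reaches DNA mainly through the TEAD family, of which TEAD1 is a member. TEAD sites often lie in enhancers away from promoters, and YAP recruited there is known for raising transcription of growth genes. A YAP peak on a TEAD1 peak is the arrangement this pair of proteins is known for.

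Of the narrow Santa Cruz peaks, 323 of 2071 (15.6%, 14.1 to 17.2) overlapped a narrow TEAD1 peak by at least 1 bp, and 1748 did not. Avruch peaks chosen by the same rule overlapped TEAD1 at 13.1% (1208 of 9214, 12.4 to 13.8). Seen from TEAD1, 317 of 46548 narrow peaks (0.681%, 0.610 to 0.760) carried a narrow Santa Cruz peak. The pairing was nearly one to one. Of the 323 Santa Cruz peaks, 320 met a single TEAD1 peak and 3 met 2 of them. Of the 317 TEAD1 peaks, 308 carried 1 Santa Cruz peak and 9 carried 2.

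Part of the 1748 peaks without a narrow TEAD1 peak were not free of TEAD1. A wide TEAD1 peak, of at least 1000 bp and so outside the members, was overlapped by 259 of them (14.8%, 13.2 to 16.6), 240 lying wholly inside it and 19 crossing its edge. With TEAD1 peaks of any width counted, 582 of the 2071 Santa Cruz peaks (28.1%, 26.2 to 30.1) overlapped TEAD1. For this reason each result is also given for the 1589 Santa Cruz peaks that lay more than 50 kb from any wide peak of any of the 3 lists. They are called remote here, and the other 482 are called adjacent. By this definition no remote peak can touch a wide TEAD1 peak, and the division is drawn from the lists themselves. Remote Santa Cruz peaks overlapped TEAD1 at 13.7% (217 of 1589, 12.1 to 15.4) and adjacent ones at 21.99% (106 of 482, 18.5 to 25.9). For Avruch the shares were 12.6% of 7989 remote and 16.6% of 1225 adjacent peaks.

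Where the lists met, midpoints lay close together, but the choice of pairs by overlap itself keeps them close. The midpoints of overlapping peaks cannot lie farther apart than the mean of their widths. The midpoints of a Santa Cruz peak and its TEAD1 peak lay a median of 72.0 bp apart (quartiles 34.5 and 138), and 208 of 323 pairs (64.4%, 59.0 to 69.4) lay within 100 bp. The narrow lists as a whole differed in width, with medians of 160 bp for Santa Cruz and 273 bp for TEAD1 peaks. In the pairs, too, the Santa Cruz peak was the smaller partner, with a median width of 177 bp against 392 bp for the TEAD1 peaks carrying one. In 191 of the pairs (59.1%, 53.7 to 64.4) it lay wholly inside the TEAD1 peak, and in 4 pairs the TEAD1 peak lay wholly inside the Santa Cruz peak. The edges crossed in the remaining 128 pairs (39.6%, 34.4 to 45.1). Median overlap was 168 bp, the shortest was 8 bp, and 9 pairs overlapped by less than 50 bp. Midpoints were more than 300 bp apart in 12 pairs. The Santa Cruz midpoint lay at the higher coordinate in 150 pairs and at the lower in 173. The median distance was 65.0 bp for remote and 91.0 bp for adjacent pairs. Just outside the rule, in positions of build hg19, the closest peaks without overlap lay 6 bp, 8 bp and 13 bp from TEAD1, at chr22:51015563-51015700, chr10:31423405-31423565 and chr5:141823149-141823333, with Santa Cruz scores of 50.02, 65.2 and 78.9.

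**Figure D1:**
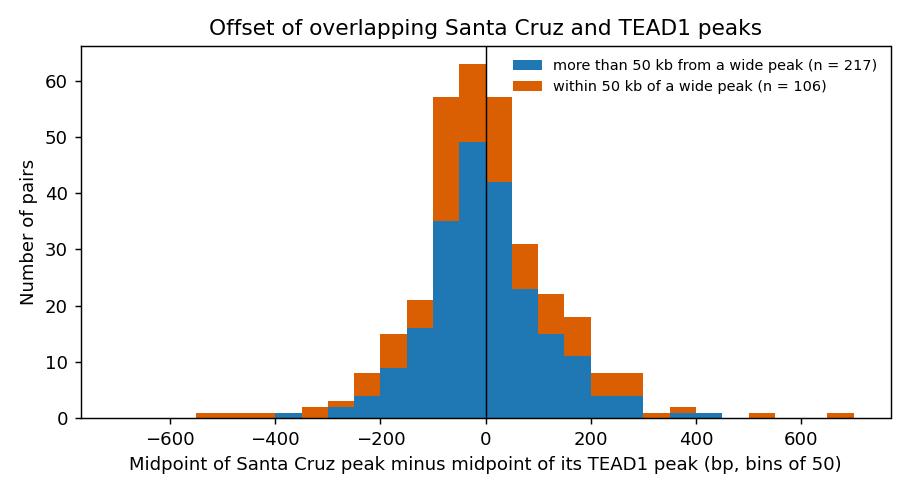
Histogram of the distance in bp from the midpoint of each TEAD1 peak to that of the overlapping Santa Cruz peak, in bins of 50 bp, for 217 remote (blue) and 106 adjacent (orange) pairs. The bars are highest around 0, and the median distance is 72.0 bp.

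Santa Cruz peaks on TEAD1 ranked higher in their own list. The deposited score has no stated unit and starts at about 50, so it is used only to rank peaks within a list, as a percentile from 0 (lowest) to 100 (highest). The median score was 63.7 for the 323 overlapping peaks (quartiles 55.9 and 76.9, range 50.1 to 282) and 57.7 for the 1748 others (54.2 and 65.0, range 50.01 to 298.7). As percentiles these medians were 68.2 (95% binomial interval of the median 60.2 to 71.95) and 47.4 (45.1 to 49.3). The quartiles of the groups overlapped widely, so many weak peaks lay on TEAD1 and many strong ones did not. Ranked among remote peaks alone, the medians were 67.2 with TEAD1 (59.6 to 78.3) and 47.8 without (45.6 to 50.5). Ranked among adjacent peaks alone they were 50.4 with a narrow TEAD1 peak (42.0 to 60.9) and 49.8 without one (44.7 to 55.9). Each of these medians lies within the other's interval. Of the 376 adjacent peaks without a narrow TEAD1 peak, 259 overlapped a wide one. The adjacent ranks thus compare narrow TEAD1 mostly with wide TEAD1. The 259 peaks on a wide TEAD1 peak alone had the highest median, at percentile 82.6, and the 1489 peaks without TEAD1 of any width had 43.05. For Avruch the medians were 61.2 with and 48.8 without a narrow TEAD1 peak.

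Over deciles of the Santa Cruz score, the share on TEAD1 did not climb steadily. It was 13.5% in decile 1, the lowest scores (28 of 208), reached its lowest value of 6.76% in decile 5 (14 of 207), and was 26.1%, 19.3% and 30.4% in the highest 3. These 3 deciles together held 157 overlapping peaks of 621 (25.3%, 22.02 to 28.9), against 166 of 1450 (11.4%, 9.91 to 13.2) in the lowest 7. Decile 10 was also where peaks crowd around wide ones, as 146 of its 207 peaks were adjacent, against 28 of 208 in decile 1. Drawn among remote peaks alone, decile 1 had 13.2% (21 of 159, 8.80 to 19.4), decile 5 had 5.03% (8 of 159, 2.57 to 9.61) and decile 10 had 35.2% (56 of 159, 28.2 to 42.9). Among adjacent peaks decile 10 had 16.3% (8 of 49, 8.51 to 29.0) and decile 4 had the highest share, 39.6% (19 of 48, 27.0 to 53.7).

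**Figure D2:**
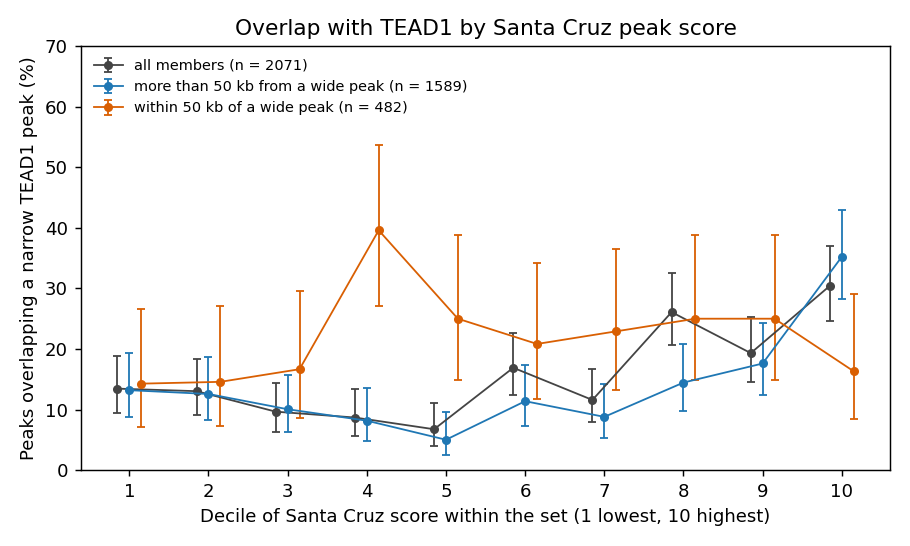
Share of Santa Cruz peaks overlapping a narrow TEAD1 peak (y axis, percent) by decile of Santa Cruz score (x axis), for all members (grey), remote peaks (blue) and adjacent peaks (orange), with deciles drawn anew in each set and Wilson 95% intervals as bars. Remote peaks stand at 35.2% in decile 10 and at 5.03% in decile 5.

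The highest decile of Santa Cruz score also held the widest peaks by median. Median width was between 149 and 168 bp in each of deciles 1 to 8 of the score, 204 bp in decile 9 and 434 bp in decile 10, and among remote peaks it was between 150 and 162 bp in deciles 1 to 9 and 190.0 bp in decile 10. Santa Cruz peaks of 148 bp or less overlapped TEAD1 at 13.5% (56 of 415), those in the second quintile of width (148 to 158 bp) at 6.28% (26 of 414) and those of 252 bp or more at 21.5% (89 of 414). Within each of the 5 width classes the overlapping peaks had the higher median score. The medians were 59.9 against 58.8 in the narrowest class, 64.7 against 60.7 in the fourth (170 to 251 bp) and 75.6 against 70.6 in the widest. Among remote peaks the medians were almost equal in the middle class (155 to 160 bp, 55.87 against 55.86) and farther apart in the widest (179 to 853 bp, 70.7 against 62.9).

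The strongest Santa Cruz peaks on TEAD1 were examined one by one. The highest lay at chr1:11889529-11889760, 232 bp wide, with a score of 282. Its TEAD1 peak, chr1:11889557-11889773, stood alone, with no other TEAD1 peak within 10 kb, and scored 122.0, at percentile 85.2 of the narrow TEAD1 list. Next came chr18:112077-112534, with a score of 265 on a lone TEAD1 peak of score 615, but this site lay 597 bp from a wide peak. The third, chr13:113917040-113917489, scored 163 and met a lone TEAD1 peak of score 110.0. All of these were also found with the Avruch antibody, as were 9 of the 10 highest-scoring overlapping peaks. So were 6 of the 10 highest-scoring peaks without a narrow TEAD1 peak. Over all members, an Avruch peak was found at 58.0% of peaks in decile 10 of the Santa Cruz score and 11.1% in decile 1.

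The other 7 of the 10 highest-scoring overlapping peaks scored between 124 and 137. They lay at chr10:135486289-135486676, chr5:69785169-69785622, chr1:2609005-2609310, chr8:86760301-86760930, chr4:49285036-49285404, chr5:344520-344898 and chr2:162137585-162137947. The site on chromosome 4 was the one without an Avruch peak, and its TEAD1 peak was weak (score 54.5, percentile 15.8). The chromosome 5 site at 69785169 sat in a run of 33 TEAD1 peaks. Of all 10 sites, 5 were in clusters of at least 3 TEAD1 peaks, 1 in a pair and 4 on lone peaks, and 6 were adjacent to a wide peak. Gene content at these sites was not analysed here.

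The 10 strongest Santa Cruz peaks without a narrow TEAD1 peak were wide for members of the list, between 501 and 984 bp, with scores of 168 to 298.7. Wide TEAD1 peaks were overlapped by 9 of them, led by chr8:86803959-86804924 (score 298.7) and chr2:90476706-90477416 (score 285). The exception was chr3:303602-304249, with a score of 201, an Avruch peak, and its nearest TEAD1 peak 74704 bp away. Among remote peaks without TEAD1 it was followed by chr9:46387840-46387909, 70 bp wide with a score of 117, so that the site on chromosome 3 stood well above its neighbours in rank. The remote peaks were looked at in this way after their values had been seen.

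High TEAD1 scores were found beside both low and high Santa Cruz scores. The strongest narrow TEAD1 peak carrying a Santa Cruz peak, chr1:155160927-155161900, had a TEAD1 score of 785 (percentile 99.4) in a run of 10 TEAD1 peaks, and its Santa Cruz peak scored 51.4, at percentile 11.4 of its own list. At the next, chr12:1583326-1583726, a TEAD1 score of 741 stood beside a Santa Cruz score of 52.1 (percentile 14.9). At chr5:209171-209940 the scores were 653 and 53.6. The chromosome 18 site above (615 and 265) and chr20:26188649-26189450 (532 and 116) were high in both lists. Over the 323 pairs, Spearman's rho between Santa Cruz and TEAD1 scores was 0.22, and it was 0.20 over the 217 remote pairs. These are descriptions across sites that share 1 library for each antibody.

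TEAD1 peaks that carried a Santa Cruz peak ranked high among TEAD1 peaks. Their median TEAD1 score was 102.4 (quartiles 67.7 and 165, n = 317), at percentile 79.8, against 66.6 (56.9 and 91.3) for the other 46231. Those under remote Santa Cruz peaks had a median of 91.6, at percentile 74.97. The 317 were wider too, with a median of 392 bp against 273 bp. Under remote Santa Cruz peaks the median width was 320 bp, against 271 bp for the other TEAD1 peaks more than 50 kb from wide peaks. By quintiles of TEAD1 score, 0.311% carried a Santa Cruz peak in the lowest (29 of 9310) and 1.70% in the highest (158 of 9310, 1.45 to 1.98). With remote peaks alone these shares were 0.244% (22 of 9014) and 1.07% (96 of 9014, 0.873 to 1.30). The narrow TEAD1 list reached 3140, and no peak in it with a score above 785 carried a Santa Cruz peak. A score of 785 was at percentile 99.4 of that list, so few peaks stood above it. At a share of 1.70% in the highest quintile, little can be read from their lack of a Santa Cruz peak.

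Of the Santa Cruz peaks without overlap, 89.5% lay within 100 kb of a narrow TEAD1 peak. With 46548 narrow TEAD1 peaks on these chromosomes, many positions lie near one. No background level was measured for these distances, so the shares alone do not show closeness to TEAD1. The median distance to the nearest narrow TEAD1 peak was 13799 bp (quartiles 3380 and 37698). Of the 1748 peaks, 201 (11.5%, 10.1 to 13.1) lay within 1 kb, 569 (32.6%) at 1 to 10 kb, 795 (45.5%) at 10 to 100 kb and 183 (10.5%) farther away, none of them over 1 Mb. Within 10 kb were thus 770 (44.1%, 41.7 to 46.4), and 562 of 1372 (41.0%, 38.4 to 43.6) among remote peaks. Avruch peaks without overlap lay within 10 kb of TEAD1 at 42.2% (3381 of 8006, 41.2 to 43.3), with a median distance of 13798 bp (quartiles 4059 and 38335). The distances outside the overlap were thus spread much alike in both YAP lists.

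Among remote peaks the score rank was highest at the overlap. Median percentiles in the list of all members were 60.2 on TEAD1, 50.9 within 1 kb, 44.2 at 1 to 10 kb, 41.0 at 10 to 100 kb and 46.0 beyond 100 kb. Adjacent peaks ranked higher in every class, from 53.5 beyond 100 kb to 81.2 at 1 to 10 kb, and in that class 78.2% of them overlapped a wide TEAD1 peak.

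**Figure D3:**
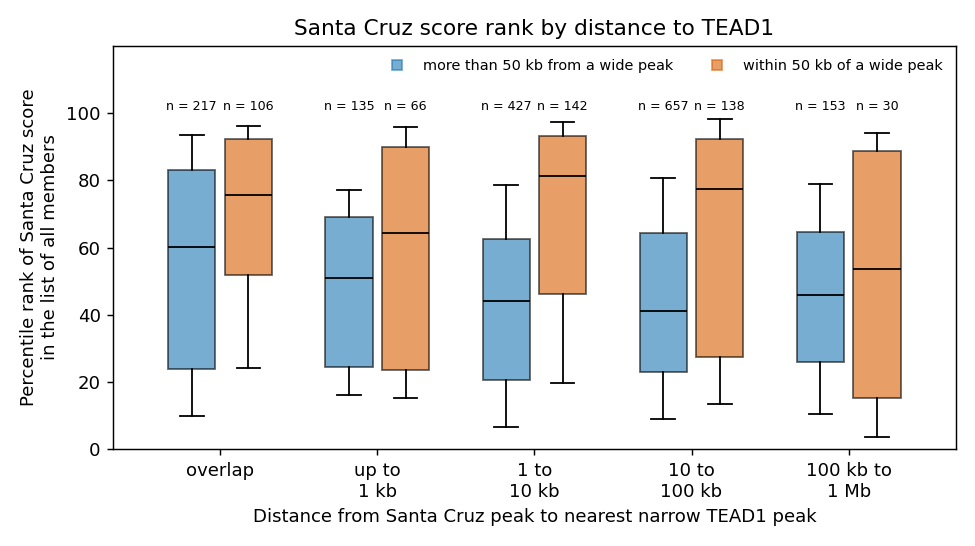
Percentile rank of the Santa Cruz score in the list of all members (y axis) by distance to the nearest narrow TEAD1 peak (x axis), for remote (blue) and adjacent (orange) peaks. Boxes show quartiles and the median, and whiskers the 10th and 90th percentile. Among remote peaks the median is 60.2 at the overlap and between 41.0 and 50.9 in the other classes.

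The 5 Santa Cruz peaks farthest from TEAD1 lay 588067 to 663839 bp from it. They fell on 3 chromosomes, at chr5:46322996-46323243, at chr7:61083385-61084130 and at chr11:50421518-50421608, chr11:50681488-50681724 and chr11:50743039-50743452. Their scores were between 52.2 and 77.5, and none overlapped an Avruch peak. Of these 5 peaks 4 were remote, and of all remote peaks beyond 100 kb 6.54% overlapped an Avruch peak. Little can thus be read from its absence at 5 peaks.

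TEAD1 sites were called lone where no other narrow TEAD1 peak lay within 10 kb, and clustered in runs of at least 3 with gaps of at most 10 kb. Pairs are runs of 2. Santa Cruz peaks met clustered TEAD1 sites more often than the make-up of the TEAD1 list. Of the 317 TEAD1 peaks carrying a Santa Cruz peak, 170 were clustered (53.6%, 48.1 to 59.0), 54 paired (17.0%) and 93 lone (29.3%, 24.6 to 34.6). Of all narrow TEAD1 peaks 28.5% were clustered, 22.1% paired and 49.4% lone. Of the 170 clustered ones, 90 lay under adjacent Santa Cruz peaks, and beside wide peaks TEAD1 peaks were mostly clustered. There 90 of 102 TEAD1 peaks with a Santa Cruz peak were clustered (88.2%), against 72.8% of all 1480. Under remote Santa Cruz peaks 80 of 215 were clustered (37.2%, 31.0 to 43.8), against 27.1% of 45068 TEAD1 peaks that lay more than 50 kb from wide peaks, and 86 were lone (40.0%, against 50.5%). The TEAD1 peaks carrying an Avruch peak were clustered at 35.1% (413 of 1178).

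**Figure D4:**
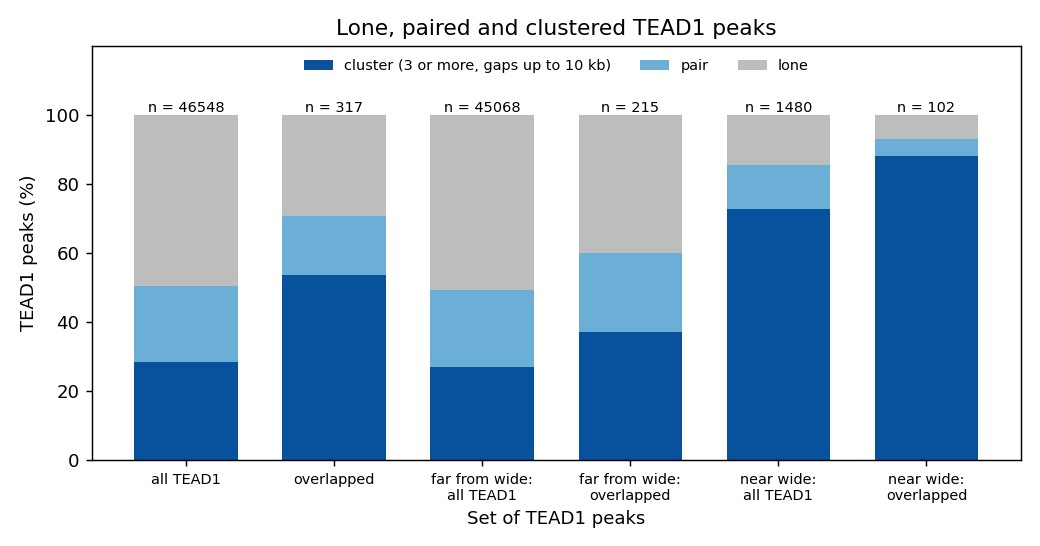
Lone (grey), paired (light blue) and clustered (dark blue) TEAD1 peaks as percent of each set (y axis), for all narrow TEAD1 peaks and those overlapped by a Santa Cruz peak, in all regions, more than 50 kb from wide peaks and within 50 kb of them. The clustered part is 28.5% of all and 53.6% of overlapped TEAD1 peaks, and 27.1% and 37.2% away from wide peaks.

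Clustered TEAD1 peaks score higher than lone ones (medians 68.9 and 65.5), so the classes were also set out by TEAD1 score. The clustered share was higher at overlapped than at all TEAD1 peaks in each quintile of TEAD1 score, from 44.8% against 26.9% in the lowest (13 of 29 overlapped) to 61.4% against 33.6% in the highest (97 of 158). Away from wide peaks this order held in 4 of the 5 quintiles. In quintile 4 it was the other way round, with 22.5% (9 of 40, 12.3 to 37.5) against 27.1%. In quintile 5, the highest scores, the shares there were 41.7% (40 of 96, 32.3 to 51.7) against 31.3%.

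The 170 overlapped TEAD1 peaks in clusters came from 110 clusters, out of 3142 (3.50%, 2.91 to 4.203). In 86 of these clusters 1 TEAD1 peak was overlapped, and in 24 at least 2. The overlapped peak was the strongest of its cluster in 42 cases, and 114 of 170 (67.1%) ranked in the upper 50% of their cluster by TEAD1 score. Among all members of the same clusters, with each cluster weighted by its overlapped peaks, 44.9% ranked there, a share below 50% because clusters can have an odd number of members. Under remote Santa Cruz peaks the shares were 65.0% (52 of 80) and 42.6%. Overlapped peaks belonged to large clusters, with a median of 8 members against 4 for all clustered TEAD1 peaks. Under remote peaks the median was 5.

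The ranks of Santa Cruz peaks on lone, paired and clustered TEAD1 sites had overlapping intervals. The median percentile was 60.0 on lone (n = 93, interval 53.0 to 72.7), 69.6 on paired (n = 54, 51.6 to 82.1) and 69.8 on clustered sites (n = 176, 60.6 to 74.4). Among remote peaks it was 58.7 on lone sites (52.3 to 72.7), 69 on paired sites (n = 49, 50.2 to 78.5) and 55.7 on clustered sites (45.3 to 71.95).

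The TEAD1 cluster with the most overlapping Santa Cruz peaks spanned chr22:17024292-17049399, where 9 Santa Cruz peaks, all overlapping, met 7 of 13 TEAD1 peaks. Chromosome 22 had the highest share of overlapping peaks of all chromosomes, 34.7% (17 of 49, 22.9 to 48.7), and without this cluster 8 of 40 peaks there overlapped. On the other chromosomes the share ran from 10.1% on chromosome 20 (7 of 69) to 23.9% on chromosome 8 (26 of 109). The next clusters were chr19:8851448-8897401, with 8 of 12 Santa Cruz peaks overlapping, and chr4:49275590-49289435, with 8 of 10. After them came chr1:2605436-2634232, with 7 of 17, and chr19:48407127-48468161, with 6 of 6. The last is a run of 42 narrow TEAD1 peaks. In all 5 clusters every Santa Cruz peak was adjacent to a wide peak.

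Santa Cruz peaks were also counted in windows of 200 kb. Among the 5 fullest, those at chr1:2600666-2693830 and chr4:49272953-49329177 take in clusters just named. The fullest of all held 39 Santa Cruz peaks at chr19:36761850-36797636, with median steps of 844.5 bp from one start to the next (quartiles 588 and 1188). None of them met a narrow TEAD1 peak, all 39 overlapped a wide one, and 33 overlapped an Avruch peak. The next fullest, chr1:228746074-228782389, held 31 peaks with median steps of 833.5 bp, again all on wide TEAD1 peaks, of which the widest measured 19775 bp. At chr1:2600666-2693830, 11 of 25 Santa Cruz peaks met a narrow TEAD1 peak and 16 a wide one. At chr19:37685191-37793928 it was 0 and 23 of 24, and at chr4:49272953-49329177 11 and 7 of 21. Across the 28 windows with more than 5 Santa Cruz peaks, 346 peaks in all, 20.8% overlapped a narrow TEAD1 peak (16.9 to 25.4), and 58.4% overlapped a wide one. The 1255 peaks alone in their window overlapped a narrow TEAD1 peak at 12.4% (155, 10.6 to 14.3).

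Overlap with a narrow Avruch peak was counted without use of the TEAD1 list. The division into remote and adjacent peaks, however, draws on wide peaks of both lists. Over all members, 17.9% of Santa Cruz peaks overlapped a narrow Avruch peak. The share was 38.4% on TEAD1 (124 of 323, 33.2 to 43.8) and 14.1% elsewhere (246 of 1748, 12.5 to 15.8). Among remote peaks it was 30.4% on TEAD1 (66 of 217, 24.7 to 36.8) against 2.92% elsewhere (40 of 1372, 2.15 to 3.95). The difference was 27.5 percentage points for remote peaks (21.7 to 34.0) and 24.3 for all members (18.9 to 29.9). Among adjacent peaks the shares were 54.7% on a narrow TEAD1 peak (58 of 106, 45.2 to 63.9) and 54.8% elsewhere (206 of 376, 49.7 to 59.7). Of those elsewhere, it was 62.5% on a wide TEAD1 peak alone (162 of 259, 56.5 to 68.2). It was 37.6% for the adjacent peaks without TEAD1 of any width (44 of 117, 29.4 to 46.6). Seen the other way, 62.3% of remote Santa Cruz peaks with an Avruch peak lay on TEAD1 (66 of 106, 52.8 to 70.9), and 10.2% of those without (151 of 1483, 8.74 to 11.8).

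**Figure D5:**
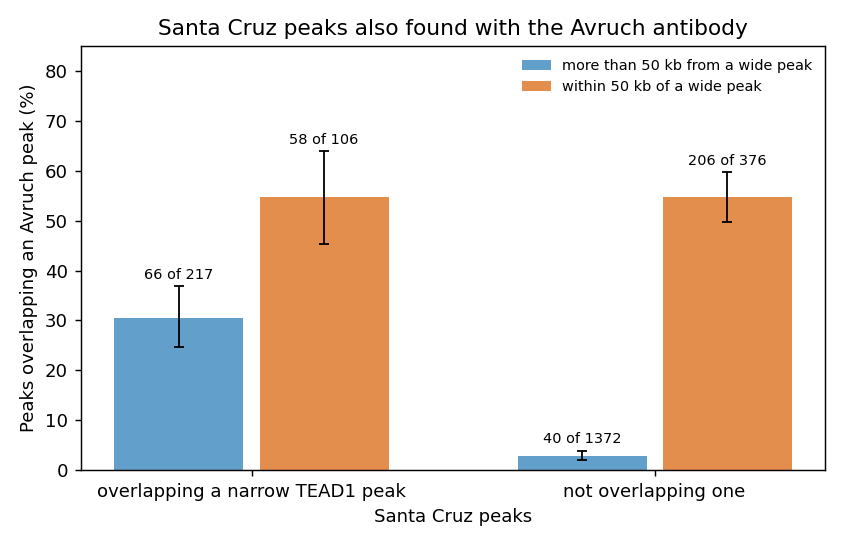
Share of Santa Cruz peaks that overlap a narrow Avruch peak (y axis, percent), for peaks with and without a narrow TEAD1 peak (x axis), remote (blue) and adjacent (orange), with Wilson 95% intervals. The remote bars stand at 30.4% and 2.92%, the adjacent bars at 54.7% and 54.8%.

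Remote peaks off TEAD1 were seldom found with Avruch at any distance. The share with an Avruch peak was 3.70% within 1 kb of TEAD1 (5 of 135, 1.59 to 8.38) and 2.81% at 1 to 10 kb (12 of 427, 1.61 to 4.85). It was 1.98% at 10 to 100 kb (13 of 657, 1.16 to 3.36) and 6.54% beyond 100 kb (10 of 153, 3.59 to 11.6). Of the 10 beyond 100 kb, 4 lay together at chr1:121418088-121427069, between Santa Cruz peaks that lay within 50 kb of a wide peak. Of all Santa Cruz peaks on TEAD1, an Avruch peak was found at 40.9% on lone sites (38 of 93, 31.4 to 51.0), 24.1% on paired sites (13 of 54, 14.6 to 36.9) and 41.5% on clustered ones (73 of 176, 34.5 to 48.9). Of the remote peaks alone, it was found at 39.5% on lone sites (34 of 86, 29.9 to 50.1), 22.4% on paired sites (11 of 49, 13.0 to 35.9) and 25.6% on clustered ones (21 of 82, 17.4 to 36.0). The intervals of lone and clustered sites overlapped in both sets.

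The 66 remote Santa Cruz peaks on TEAD1 with an Avruch peak had higher medians of Santa Cruz and TEAD1 score than those without. Their median Santa Cruz percentile was 75.4 (quartiles 39.3 and 88.9, interval of the median 57.4 to 85.5). It was 54.1 (49.8 to 68.2) for the 151 remote peaks on TEAD1 without Avruch, and these intervals overlap. Remote peaks without TEAD1 had 49.0 with an Avruch peak (n = 40, 28.9 to 69.2) and 43.05 without (n = 1332). The TEAD1 peaks under remote Santa Cruz peaks had a median TEAD1 score of 119.6 (n = 65, percentile 84.6, interval 79.8 to 88.1) with an Avruch peak and 79.8 (n = 150, percentile 66.8, 56.2 to 76.5) without. The 10 strongest remote Santa Cruz peaks on TEAD1, listed after their values had been seen, include 8 with an Avruch peak. Among them are neighbours at chr2:162137585-162137947 and chr2:162138480-162139199, scores 124 and 119, on a pair of TEAD1 peaks, and a peak of 153 bp at chr5:143539400-143539552, score 116, on a lone TEAD1 peak of score 121.7.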

How the data were processed

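The authors' deposited files are 3 peak lists without a header, 1 each for the Santa Cruz, Avruch and TEAD1 libraries, with 5 columns: chromosome, start, end, peak name and score. Per the submitters' processing notes, reads were aligned with Bowtie2 to build hg19, and peaks are named after the caller MACS. For its settings, control library and any filtering, the sources used here give nothing. The score is the authors' own value per peak, with no stated unit, and was used only to rank peaks within a list. The members and all rules of comparison were chosen with earlier results of these data known.

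Peaks were compared by position with Python 3.11.15, pandas 2.3.3 and scipy 1.17.1. Overlap meant at least 1 bp. Distances run edge to edge, with 1 for adjoining peaks, and positions are counted from 1. A Santa Cruz peak over several TEAD1 peaks was paired with the one of longest overlap. Ties in score share a percentile rank. The functions were tested on simulated peaks. Named are the 10 highest-scoring Santa Cruz peaks with and without TEAD1, the 5 with the highest TEAD1 score and the 5 farthest from TEAD1. Also named are the 5 TEAD1 clusters with the most overlapping Santa Cruz peaks and the 5 windows of 200 kb with the most Santa Cruz peaks. Gene context, motifs and sequences were planned but not analysed, as no hg19 genome or annotation was used here.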

Additional observations from a re-analysis of the deposited data

Results flagged for a closer look

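Santa Cruz peaks outside the rule for members also met TEAD1 peaks, and the comparisons above do not use them. With TEAD1 peaks of any width counted, the overlap was 64.0% for the 114 Santa Cruz peaks of at least 1000 bp on chromosomes 1 to 22 (73 peaks, Wilson 95% interval 54.9 to 72.3). It was 25.5% for the 106 peaks on chromosomes X and Y (27 peaks, 18.1 to 34.5) and 45.6% for the 180 peaks on unplaced or unlocalised contigs (82 peaks, 38.5 to 52.9). No background level of overlap was measured for these peaks. The median widths of these groups were 1696 bp, 259 bp and 683 bp. Counted the same way, the members had 28.1%.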

How the results depend on the processing

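The use of TEAD1 peaks of any width, the restriction to adjacent Santa Cruz peaks, the removal of windows with more than 5 Santa Cruz peaks and the use of the highest-scoring peak of each locus (peaks joined at gaps of at most 10 kb) were chosen after seeing the data. Of 58 recomputed values, 17 stayed within the 95% interval of the value reported, 40 moved outside it and 1 changed sign. Only the differences in rank and in Avruch overlap have a direction, with 11 alternatives each. Among adjacent peaks the difference in Avruch overlap changed sign, to -0.070 percentage points (interval -10.8 to 10.4), and that in median percentile was 0.622 (-7.78 to 11.1). Intervals of the difference in median percentile cover the median of the overlapping peaks only and hold that of the others fixed. They are thus too narrow, also where they decided which values stayed or moved. Of the 376 adjacent peaks without a narrow TEAD1 peak, 259 overlapped a wide one. The other alternatives kept the sign of both. The cause was not tested. The share of Santa Cruz peaks on TEAD1 (15.6%) was 10.4% with widths below 500 bp, 30.0% with no width limit, 20.8% for the upper 50% of Santa Cruz scores, 12.0% for the upper 50% of TEAD1 scores, 13.7% for remote and 21.99% for adjacent peaks, 6.52% with an overlap of 50% of both peaks, 13.8% with windows of 200 bp, 28.1% with TEAD1 peaks of any width and 14.0% with 1 peak per locus. The difference in median percentile (20.8) was 11.5 with widths below 500 bp, 32.4 with no limit, 9.60 for the upper 50% of Santa Cruz scores, 25.4 with an overlap of 50%, 30.3 with TEAD1 of any width and 26.5 with 1 peak per locus. The share of other peaks within 10 kb of TEAD1 (44.1%) was 40.8% with no width limit, 47.9% for the upper 50% of Santa Cruz scores, 30.2% for the upper 50% of TEAD1 scores, 41.0% for remote and 55.3% for adjacent peaks, 41.5% with TEAD1 of any width, 11.5% at 1 kb and 89.5% at 100 kb.

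The clustered share of overlapped TEAD1 peaks (53.6%, all TEAD1 peaks 28.5%) was 35.8% with widths below 500 bp (all 24.9%), 65.3% with no limit, 45.2% for the upper 50% of TEAD1 scores (all 16.5%), 37.2% for remote and 88.2% for adjacent peaks, 45.9% with an overlap of 50%, 65.0% with TEAD1 of any width, 42.4% without dense windows and 42.9% with 1 peak per locus. It was 42.9% with gaps of 5 kb (all 16.2%), 66.2% with 20 kb (all 46.5%) and 39.1% for clusters of at least 5 (all 11.9%). The difference in Avruch overlap (24.3 percentage points) was 18.6 with widths below 500 bp, 51.9 with no limit and 43.5 with TEAD1 of any width. No paired analysis was possible because each antibody has 1 library. Depth is not known from the lists, so a peak missing from a list may be a site below its threshold.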

Other observations

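A group of 40 remote Santa Cruz peaks overlapped an Avruch peak and no TEAD1 peak, and was picked out after its values had been seen. They lay on 15 chromosomes and were partly crowded, as 17 of the 40 were the one Santa Cruz peak in their 200 kb window. At chr4:9214790-9357997 there were 6 of them and at chr1:121418088-121427069 there were 4. The strongest of these 4 lay 53360 bp from a wide peak, little beyond the limit of 50 kb. The nearest Santa Cruz peaks on either side of the 4 lay within that limit. The strongest of the 40 was the site at chr3:303602-304249 described above, with a Santa Cruz score of 201. It was followed by chr9:69710604-69711456 (score 101.7, 13212 bp from TEAD1), chr4:9328913-9329378 (96.2, 3751 bp), chr1:121424589-121425241 (96.1, 151733 bp) and chr13:97340310-97340449 (88.5, 37428 bp). What these sites have in common was not analysed here.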
